A study of Oryza sativa with 6 samples.

Results

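A stretch of rice chromosome 9 was examined gene by gene, around a pair of genes whose transcripts were the most lowered in leaves given the ShSDH1 protein. The window is 100000 identifier units wide in all and spans the pair. It holds every listed gene in that range, whatever its FPKM (fragments scaled to the length of the gene and to sequencing depth). It contains 145 of the 29011 genes listed. The pair is OsR498G0917462400.01 and OsR498G0917463600.01, and the other 143 genes of the window are described beside it. The pair was chosen by its log2 fold change between ShSDH1 and Control leaves, and the window was placed around it by identifier number. The values of the pair in that comparison are therefore a description and carry no test.

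The study measured RNA of leaves from 2-week-old rice seedlings (Oryza sativa), 6 h after treatment with a purified protein. In the ShSDH1 group of 3 libraries the protein was ShSDH1, named in the series title as an oxidoreductase of the endophyte OsiSh-2. In the Control group of 3 libraries it was pCold TF, a protein made from a vector whose solubility tag is the bacterial chaperone trigger factor. No untreated leaves are in the series. The labels name no cultivar and leave unsaid whether replicates are separate plants or pools. P-values therefore reflect only the variation among these 6 libraries, part of which may be technical.

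Endophytes are microbes that live inside plant tissue without causing disease, and plants can perceive some microbial proteins through receptors at the cell surface, which changes the transcription of many genes within hours. In plant genomes, duplicated genes often lie side by side in tandem arrays, and members of an array can share expression. Unrelated neighbours can also share a promoter region or a stretch of chromatin. A leaf is a mixture of cell types, and in such bulk RNA fewer cells of a type and less RNA per cell cannot be told apart.

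Gene names and functions are not paired with identifiers in the files. The RefSeq table used here lists 39387 genes, and 0 of the 29011 identifiers were found in it, so products, coordinates, promoters and proteins are not given, and leaf markers could not be looked up. The first digits after OsR498G give the chromosome and the rest a serial number, and that this order follows position along the chromosome is an assumption. Genes other than the pair and the pair of members most raised are therefore given by their place in identifier order, counted in listed genes before or after the pair. The edges of the window fall among genes with small differences, though the first gene inside is among those called higher further below. The first gene inside averaged 126.5 ± 2.8 FPKM in ShSDH1 leaves and 107.5 ± 5.1 FPKM in Control leaves, and the gene just outside it 4.85 ± 0.12 and 5.12 ± 0.30 FPKM in ShSDH1 and Control leaves (SD, n = 3 each). At the other edge the last gene inside averaged 4.30 ± 0.70 FPKM in ShSDH1 leaves and 4.52 ± 0.67 FPKM in Control leaves, and the gene just outside it 9.30 ± 0.32 and 9.96 ± 0.27 FPKM in ShSDH1 and Control leaves.

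Depth, read from the whole-fragment steps of the low FPKM values, was 33654750 to 41776866 fragments per library. The same steps gave a length for the 129 window genes above 0 in at least 4 libraries, from 336 to 7179 bases with a median of 1852 bases. A total of 85 window genes reached 1 FPKM in 3 or more libraries and entered the test, and 60 did not. The median level of the 85 was 7.06 FPKM over the 6 libraries, against 8.37 FPKM for all 17247 tested genes. Of the 85, 3 averaged at least 100 FPKM, 35 lay between 10 and 100 FPKM and 47 below 10 FPKM, so abundant and scarce transcripts lie side by side in the window.

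**Figure D1:**
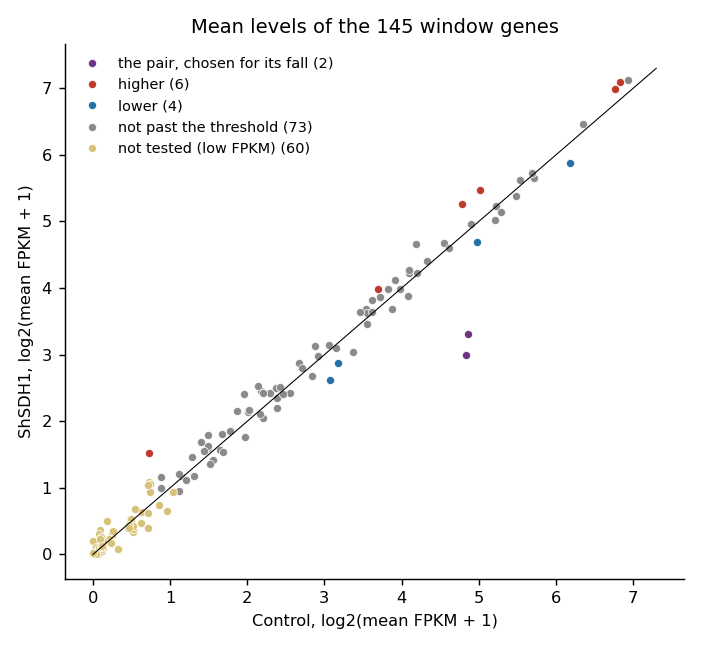
Mean FPKM of each of the 145 window genes in ShSDH1 leaves (vertical axis) and Control leaves (horizontal axis), both as log2(mean FPKM + 1), with the line of equal level. The pair, ranked 16 and 17 by Control mean, lies far below the line. The other genes lie closer to it, and the 60 untested genes crowd near 0.

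Both genes of the pair were moderately expressed in Control leaves and clearly lower in ShSDH1 leaves. OsR498G0917463600.01 had 7.33, 6.93 and 6.77 FPKM in the ShSDH1 libraries, against 23.9, 29.4 and 29.3 FPKM in the Control libraries. OsR498G0917462400.01 had 9.88, 7.94 and 8.99 FPKM in the ShSDH1 libraries, against 24.5, 31.0 and 28.8 FPKM in the Control libraries. The groups lay far apart in both genes. The lowest Control library of OsR498G0917463600.01 was 3.26 times the highest ShSDH1 library, and for OsR498G0917462400.01 it was 2.48 times. In Control leaves the pair ranked 16 and 17 among the 145 genes by mean FPKM, with OsR498G0917462400.01 first. In ShSDH1 leaves OsR498G0917462400.01 ranked 37 and OsR498G0917463600.01 ranked 42.

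The values of the pair rest on at least 307 fragments in every library. OsR498G0917463600.01, with a length of 1348 bases, had 352, 390 and 307 fragments in the ShSDH1 libraries, against 1263, 1467 and 1627 in the Control libraries. OsR498G0917462400.01, with a length of 1679 bases, had 591, 557 and 508 fragments in the ShSDH1 libraries, against 1610, 1927 and 1989 in the Control libraries. Counting alone gives an error of 5.06 to 5.71% of the value for OsR498G0917463600.01 in ShSDH1 libraries and 2.48 to 2.81% in Control libraries. Its spread between replicates (coefficient of variation, CV, n = 3) was 4.13% in ShSDH1 leaves and 11.4% in Control leaves. For OsR498G0917462400.01 the CV was 10.8% in ShSDH1 leaves and 11.8% in Control leaves. Control replicate 1 was the lowest Control library in both genes, and ShSDH1 replicate 1 the highest ShSDH1 library in both.

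**Figure D2:**
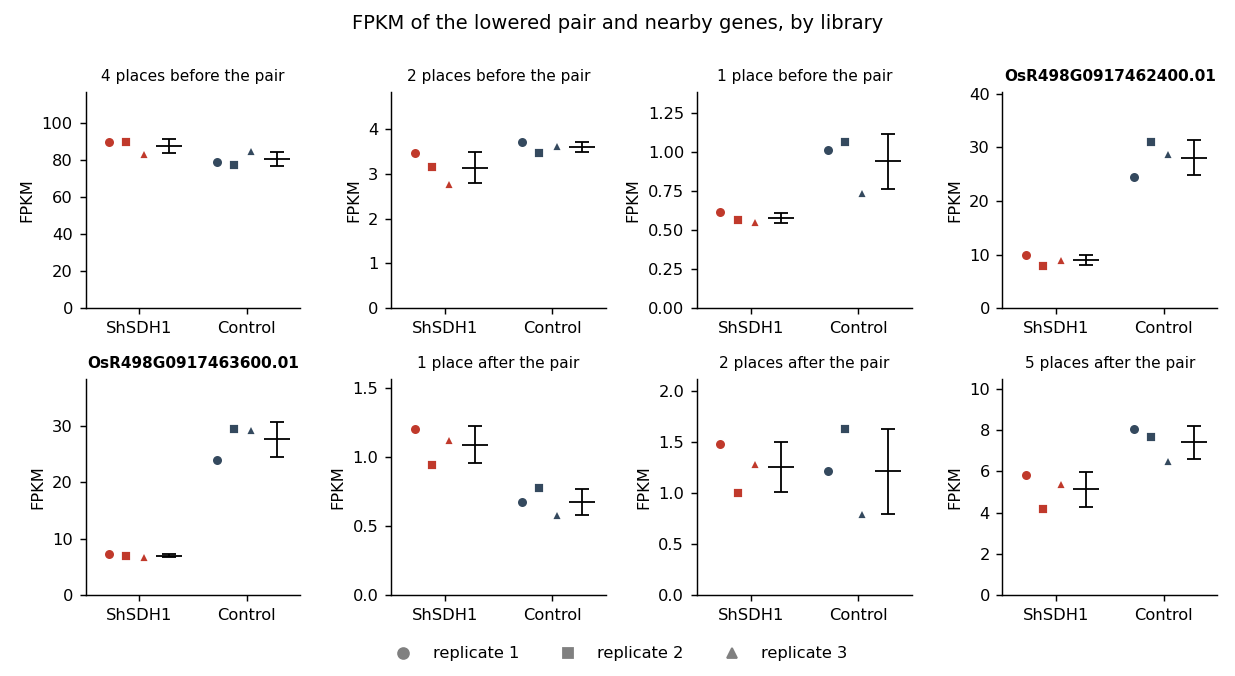
FPKM by library (vertical axes, from 0) in ShSDH1 and Control leaves for the pair and 6 nearby genes of the window; symbols are replicates and the bar beside them is the mean ± SD (n = 3). The groups are far apart in both genes of the pair, with no ShSDH1 library above 9.88 FPKM and no Control library below 23.9 FPKM, while the gene 4 places before the pair stays between 77.3 and 89.7 FPKM in all libraries.

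The genes of the pair stood near a ratio of 1 to each other in Control leaves and below it in ShSDH1 leaves. A ratio of FPKM taken within a library does not depend on how that library was scaled. OsR498G0917463600.01 over OsR498G0917462400.01 was 0.742, 0.872 and 0.753 in the ShSDH1 libraries, against 0.977, 0.948 and 1.02 in the Control libraries. All ShSDH1 ratios lay below all Control ratios, so OsR498G0917463600.01 was lowered further than its partner. As log2 of the ratio, the group means were -0.35 ± 0.13 in ShSDH1 leaves and -0.03 ± 0.05 in Control leaves (SD, n = 3 each), a difference of -0.32 ± 0.08 (SE). On the log2(FPKM + 1) scale of the fit over all genes, the log2 fold change was -1.83 ± 0.09 (SE) for OsR498G0917463600.01 and -1.55 ± 0.10 (SE) for OsR498G0917462400.01. These values describe genes that were chosen in this comparison.

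The pair took a smaller share of the window's FPKM in ShSDH1 leaves, and the summed FPKM of the other genes differed little. Abundant genes weigh most in such sums. The pair took 1.15, 1.00 and 1.07% of the summed FPKM of the 145 genes in the ShSDH1 libraries, against 3.41, 4.22 and 3.99% in the Control libraries. The other 143 genes summed to 1485, 1473 and 1463 FPKM in the ShSDH1 libraries, against 1373, 1373 and 1398 FPKM in the Control libraries. Their mean sum in ShSDH1 leaves was 1.07 times that in Control leaves with the FPKM as deposited, with no overlap between the groups. With median-ratio size factors the ratio was 1.02 and the groups overlapped, so a difference of this size depends on scaling. As a share of all FPKM of a library, these 143 genes held 0.326% ± 0.007 in ShSDH1 leaves and 0.305% ± 0.002 in Control leaves (SD, n = 3 each). With this scaling a difference remained, 0.021 ± 0.004 percentage points (SE).

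**Figure D3:**
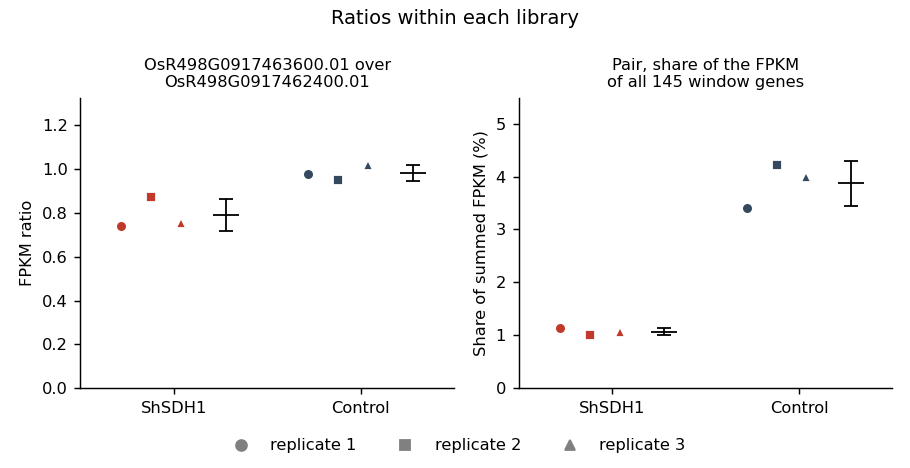
Ratios within each library, in ShSDH1 and Control leaves, with replicates as symbols and mean ± SD (n = 3) beside them. Left, the FPKM ratio of the pair's genes, 0.742 to 0.872 in ShSDH1 libraries and 0.948 to 1.02 in Control libraries; right, the pair's share of the FPKM of all 145 window genes, 1.00 to 1.15% in ShSDH1 libraries and 3.41 to 4.22% in Control libraries.

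The listed genes next to the pair did not share the size of its fall. This follows in part from choosing the pair as the most lowered. The genes on either side of the pair differed in opposite directions. Both are expressed near 1 FPKM and were not tested. The gene 1 place before the pair had 0.614, 0.567 and 0.555 FPKM in the ShSDH1 libraries, against 1.02, 1.07 and 0.741 FPKM in the Control libraries. The gene 1 place after it had 1.20, 0.945 and 1.12 FPKM in the ShSDH1 libraries, against 0.672, 0.774 and 0.583 FPKM in the Control libraries. The groups did not overlap in either gene. Over all 11764 untested genes this held in 8.11% with ShSDH1 above and in 5.19% with ShSDH1 below. The neighbour before the pair was 1.63-fold lower by ratio of means, on 61, 66 and 52 fragments in ShSDH1 libraries and 111, 110 and 85 in Control libraries. The neighbour after it was 1.61 times the Control mean in ShSDH1 leaves, on 75, 69 and 66 fragments in ShSDH1 libraries and 46, 50 and 42 in Control libraries.

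Within 10 places of the pair 12 other genes were tested. At a limma adjusted p under 0.05, 10.2% of all 17247 tested genes rose and 3.75% fell, and 1 of the 12 passed, with a fall. This gene, 5 places after the pair, had 5.80, 4.18 and 5.39 FPKM in the ShSDH1 libraries, against 8.05, 7.66 and 6.50 FPKM in the Control libraries. In limma its log2 fold change was -0.46 ± 0.12 (SE) at an adjusted p of 0.0399, and it was the lowest log2 fold change of the tested window genes outside the pair. The call did not hold under 9 of 16 other settings, where the adjusted p reached 0.159. The gene 4 places before the pair, one of the most abundant of the window, had 89.7, 89.4 and 83.3 FPKM in the ShSDH1 libraries, against 79.0, 77.3 and 84.5 FPKM in the Control libraries, with overlapping groups. Its log2 fold change of 0.12 had a 95% confidence interval from -0.01 to 0.26. The gene 2 places before the pair had a log2 fold change of -0.16, with an interval from -0.37 to 0.06, and the gene 2 places after it 0.04, with an interval from -0.32 to 0.40.

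**Figure D4:**
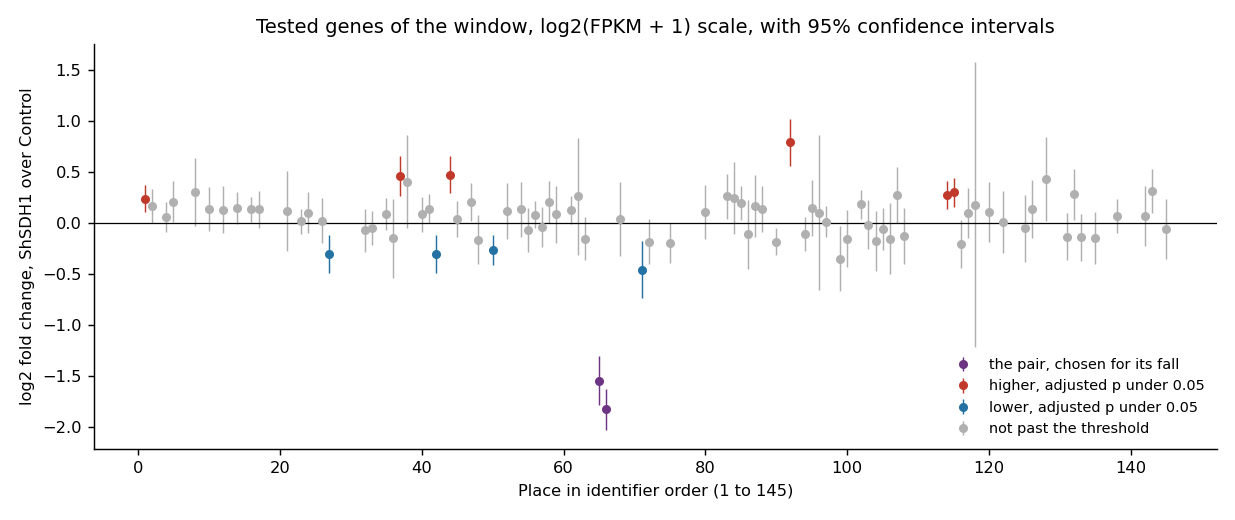
Log2 fold change of ShSDH1 over Control (vertical axis, log2(FPKM + 1) scale, bars are 95% confidence intervals from limma) for the 85 tested window genes by place in identifier order (horizontal axis). The pair, at places 65 and 66 and chosen for its fall, stands at -1.55 and -1.83, and the other tested genes lie between -0.46 and 0.79.

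Across the window the genes other than the pair differed about as often as genes elsewhere. In limma with Benjamini-Hochberg adjustment over all tested genes, 6 of the 83 (7.23%) rose and 4 (4.82%) fell at an adjusted p under 0.05. Of the 6, 1 had passed the filter only through its ShSDH1 libraries. The background over all 17247 tested genes was 10.2% for rises and 3.75% for falls. The other genes with chromosome 9 identifiers were close to that background, with 89 of 875 (10.2%) higher and 31 (3.54%) lower. The median log2 fold change of the 83 was 0.08, with quartiles of -0.09 and 0.17, beside 0.04, with quartiles of -0.09 and 0.18, over all tested genes. The split moved with scaling. Rescaled to an equal FPKM sum per library (TPM), 6 were higher and 1 lower, beside 10.7% and 3.63% of all tested genes. With the other scalings the split moved in the same direction as over all genes. It was 4 higher and 5 lower with median-ratio size factors, where 6.75% of all tested genes were higher and 5.12% lower. It was 5 of each with quantile normalization, where 7.26% of all were higher and 5.71% lower. Leaving out a library moved the counts of the window and the shares of all genes, mostly but not always in the same direction. Without ShSDH1 replicate 2 the window's rises went from 6 to 7, while the share of all genes fell from 10.2% to 8.08%. Without Control replicate 1, 1 was higher and 0 lower, with 2.45% and 0.812% of all genes. Without Control replicate 2 the counts were 3 and 0 (3.601% and 1.14% of all), and without ShSDH1 replicate 1 they were 3 and 0 (3.59% and 1.18% of all). Without ShSDH1 replicate 3 they were 3 and 1 (6.70% and 1.87% of all), without ShSDH1 replicate 2 they were 7 and 1 (8.08% and 3.46% of all), and without Control replicate 3 they were 9 and 4 (11.97% and 4.14% of all). At an unadjusted limma p under 0.05, the 3 settings with 0 lower genes had 6, 5 and 6. No share of all tested genes is given for that threshold, so these counts are not read as falls.

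The genes that rose were spread over the window, 3 before and 3 after the pair, none of them nearer than 21 places. The highest log2 fold change belonged to OsR498G0917476600.01, 26 places after the pair, with 1.76, 1.76 and 2.07 FPKM in the ShSDH1 libraries, against 0.614, 0.671 and 0.697 FPKM in the Control libraries. Its ShSDH1 mean was 2.83 times the Control mean, on 81, 95 and 90 fragments in ShSDH1 libraries and 31, 32 and 37 in Control libraries. This gene passed the filter at 1 FPKM only through its ShSDH1 libraries, so its groups could not overlap once it was tested. The size of the difference was not fixed in that way, but its call is no support for a rise. It was the single window gene of that kind, and without it 5 window genes rose. In the fit with no filter on low values, where all listed genes were tested, its log2 fold change was 0.79 at a limma adjusted p of 0.0141.

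OsR498G0917442200.01, 21 places before the pair, was next in size. It had 37.8, 40.6 and 33.2 FPKM in the ShSDH1 libraries, against 25.5, 26.6 and 27.4 FPKM in the Control libraries, with no overlap. In limma its log2 fold change was 0.47 ± 0.08 (SE) at an adjusted p of 0.00927, which was 0.0524 without Control replicate 1. The gene 28 places before the pair was similar, with 40.2, 50.0 and 40.5 FPKM in the ShSDH1 libraries, against 30.7, 31.9 and 31.3 FPKM in the Control libraries. The limma log2 fold change was 0.46 ± 0.09 (SE) at an adjusted p of 0.0138, which was 0.068 without Control replicate 1.

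The remaining rises were small and included abundant transcripts. The genes 48 and 49 places after the pair stood next to each other and both rose. The first of them had 133.9, 137.6 and 135.4 FPKM in the ShSDH1 libraries, against 108.7, 107.8 and 120.6 FPKM in the Control libraries, a log2 fold change of 0.27 ± 0.06 (SE). The gene after it had 14.6, 15.4 and 14.8 FPKM in the ShSDH1 libraries, against 11.6, 12.1 and 12.2 FPKM in the Control libraries, a log2 fold change of 0.30 ± 0.06 (SE). Apart from the pair, no other neighbouring tested genes of the window were called in the same direction. The gene at the first edge, 64 places before the pair, had 129.5, 123.8 and 126.2 FPKM in the ShSDH1 libraries, against 102.2, 108.1 and 112.3 FPKM in the Control libraries, a log2 fold change of 0.23 ± 0.06 (SE). The adjusted p of these 3 genes ran from 0.0186 to 0.0325 in limma. Of 16 other settings, the call was lost in 6 for the gene 48 places after the pair, in 4 for the gene 49 places after it and in 9 for the gene at the edge, and the adjusted p reached 0.139.

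The falls outside the pair were also small, with 3 before the pair and 1 after it, which is the gene 5 places on. The gene 15 places before the pair had 24.5, 25.4 and 25.1 FPKM in the ShSDH1 libraries, against 31.9, 31.0 and 28.2 FPKM in the Control libraries, a log2 fold change of -0.27 ± 0.06 (SE). The gene 23 places before had 6.49, 5.96 and 6.57 FPKM in the ShSDH1 libraries, against 8.58, 8.21 and 7.38 FPKM in the Control libraries, a log2 fold change of -0.30 ± 0.08 (SE). The gene 38 places before had 57.4, 53.2 and 62.0 FPKM in the ShSDH1 libraries, against 74.5, 74.97 and 64.98 FPKM in the Control libraries, a log2 fold change of -0.31 ± 0.08 (SE). In each of them the groups did not overlap but came close, with the lowest Control library 1.05 to 1.12 times the highest ShSDH1 library. The limma adjusted p of the 4 falls ran from 0.0277 to 0.0432. Of 16 other settings, the call was lost in 5 for the gene 15 places before the pair, in 8 for the gene 23 places before it and in 8 for the gene 38 places before it, and the adjusted p reached 0.171. The genes 23 and 38 places before the pair lost it under rescaling to TPM and under the replicate block, among others.

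The other 73 tested genes did not pass the threshold, and their log2 fold changes ran from -0.35 to 0.43. In 59 of them the difference was under 0.2 on the log2 scale in either direction. Among the 83, the groups did not overlap in 17 with ShSDH1 above (20.5%) and 8 with ShSDH1 below (9.64%). Over all tested genes the shares were 23.4% and 11.8%, so the window did not stand out by this count either. The lowest of the genes that did not pass lay 33 places after the pair, with 8.08, 5.39 and 8.17 FPKM in the ShSDH1 libraries, against 9.77, 9.51 and 8.78 FPKM in the Control libraries.

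A few window genes varied strongly between libraries of one group. The gene 52 places after the pair had 33.5, 5.29 and 34.2 FPKM in the ShSDH1 libraries, against 23.7, 16.7 and 11.1 FPKM in the Control libraries. The gene 30 places after the pair had 13.3, 5.45 and 15.7 FPKM in the ShSDH1 libraries, against 12.5, 7.40 and 10.04 FPKM in the Control libraries. ShSDH1 replicate 2 was the lowest of the 6 libraries in both genes, and the groups overlapped. Their CV in ShSDH1 leaves was 67.8% and 46.7%, beside a median of 5.99% over the 46 other tested window genes of at least 5 FPKM, which include them. Over all 11097 tested genes of at least 5 FPKM the median CV was 6.77% in ShSDH1 leaves and 6.01% in Control leaves. The 95% confidence interval of the log2 fold change of the gene 52 places after the pair ran from -1.22 to 1.57, which is too wide to show a difference of the size seen in most window genes.

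The 60 untested genes had low values in these leaves. None of them exceeded 1.44 FPKM in any library, 29 averaged under 0.1 FPKM and 10 averaged at least 0.5 FPKM. They were above 0 in all 6 libraries in 36 cases and listed at 0 in at least 1 library in 24, of which 7 were above 0 in a single library. All Control libraries were listed at 0 in 6 of them and all ShSDH1 libraries in 5. The groups did not overlap in 9 with ShSDH1 above (15.0%) and 2 with ShSDH1 below (3.33%), beside 8.11% and 5.19% of all 11764 untested genes.

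The number of fragments behind these differences varied widely. The gene 52 places before the pair had 1.19, 0.988 and 1.21 FPKM in the ShSDH1 libraries, against 0.524, 0.768 and 0.689 FPKM in the Control libraries. It had 187 to 194 fragments in ShSDH1 libraries and 94 to 130 in Control libraries. The gene 12 places before the pair had 0.347, 0.263 and 0.629 FPKM in the ShSDH1 libraries, against 0.0843, 0.119 and 0.194 FPKM in the Control libraries. Its fragments were 45, 40 and 77 in ShSDH1 libraries and 12, 16 and 29 in Control libraries. The gene 40 places before the pair had 8, 12 and 6 fragments in the ShSDH1 libraries and 4, 1 and 1 in the Control libraries, so counting error alone is large there. The gene 16 places before the pair was listed at 0 in all Control libraries and had 0.351, 0.0333 and 0.0827 FPKM in the ShSDH1 libraries. The gene 8 places after the pair was listed at 0 in all ShSDH1 libraries and had 0.0461, 0.0489 and 0.0439 FPKM in the Control libraries.

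The pair was neither among the closest nor among the most distant neighbours by identifier number. Neighbouring listed genes of the window were 1 to 39 steps of 100 identifier units apart, with a median of 4 steps. The genes of the pair were 12 steps apart, and 29 of the 144 intervals in the window were at least as wide. The numbers skipped inside the pair's interval are not analysed here. When the window was made 3 times as wide, its 211 tested genes other than the pair held 24 higher (11.4%) and 8 lower (3.79%), and none of them was below a log2 fold change of -0.46. The pair was chosen as the most lowered, so a lesser fall in the other genes is partly fixed by that choice.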

How the data were processed

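The table deposited by the authors holds FPKM values, 1 column per library, with replicates not pooled. Not given in the sources used here were the aligner, the counter, the annotation and whether counting used strand. The submitters' processing notes name the mouse builds GRCm38 and mm10 only. Near-identical copies and overlapping genes may therefore share reads, which was not tested for the pair. Groups and replicates come from the sample titles, columns from the library names.

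Differences were tested with limma 3.58.1 in R 4.3.3 (mean-variance trend) on log2(FPKM + 1), which understates changes of low genes. The fit covered 17247 genes that reached 1 FPKM in 3 libraries or more. Tests were two-sided, with Benjamini-Hochberg adjustment over these genes and a threshold of 0.05. Depth, lengths and fragments were computed from FPKM steps. All 25303 genes above 0 in at least 4 libraries (100%) gave whole fragments within 0.02. Fragment numbers cover counting error only. The steps were tested on simulated data. Tables were read with pandas 2.3.3 in Python 3.11.15.

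The members, lists and tests were chosen with earlier results of these data known. The naming rule was the pair plus at most 2 raised window genes with the largest log2 fold change past the threshold; others named by place, such as near neighbours and variable genes, were picked after their values were seen. Alternatives were other pseudocounts, filters, scalings and variance models, a replicate block, left-out libraries, voom on fragments, a stricter threshold and other window widths.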

Additional observations from a re-analysis of the deposited data

How the results depend on the processing

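The direction of each value reported for the pair, the median of the other genes and the 10 called genes held under every alternative run on it. The pair was chosen and the 10 genes were called in these same libraries, so a kept direction is no independent support. The log2 fold change of OsR498G0917463600.01, -1.83, was -1.95 and -1.97 with pseudocounts of 0.1 and 0.01 and -1.97 in voom on the implied fragments. A smaller offset shrinks values less. With a library left out it ran from -1.92 to -1.78, and that of OsR498G0917462400.01 from -1.64 to -1.47. The difference between them on the log2(FPKM + 1) scale, -0.28, ran from -0.35 to -0.24 over all alternatives. The median of the other genes, 0.08, was 0.022 with no filter, 0.028 with quantile normalization and 0.032 with median-ratio size factors, and 0.057 to 0.097 with a library left out. The median of all tested genes was 0.04. It was 0.016 with no filter, -0.01 with quantile normalization, -0.01 with median-ratio size factors, and 0.028 to 0.066 with a library left out. The count of raised genes, 6 of 83, was 2 at an adjusted p under 0.01 (2.68% of all genes), 3 of 49 in the window of lesser width, 24 of 211 in the wider one, and 1 to 9 with a library left out (2.45 to 11.97% of all genes). The count of lowered genes, 4, was 1 of 143 with no filter (1.39% of all genes), 1 after rescaling to TPM (3.63%), 1 without a variance trend (2.91%), 0 in limma at an adjusted p under 0.01 (0.748%; 6 at an unadjusted p under 0.05), 8 of 211 in the wider window, and 0 to 4 with a library left out (0.812 to 4.14%). The cause of these shifts was not tested, and no share of all genes is given for the unadjusted threshold. With voom 7 rose and 3 fell (10.2% and 3.83% of all genes), and 9 of the 10 called genes were shared. With the replicate block 6 rose and 2 fell (9.53% and 3.46% of all genes). Same-numbered libraries had correlations of 0.18 (number 1), 0.27 (number 2) and -0.02 (number 3) in their deviations from group means. Those of differently numbered libraries ran from -0.29 to 0.15. These few values do not settle whether the numbers pair the libraries, and the main fit did not pair them. The scaling of the summed FPKM by median-ratio factors was added after seeing the data. Low FPKM kept 60 window genes out of the test, and 29 of them averaged under 0.1 FPKM.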
